A study of Mus musculus with 21 samples.

Results

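The genes described here are 10 co-chaperones and cofactors of the molecular chaperone HSP90: Stip1, Cdc37, Cdc37l1, Ahsa1, Ptges3, Tsc1, Fkbp4, Ppid, Ppp5c and Unc45a. They were chosen by name from the 45706 genes of the count table, with earlier results of these data known. Their counts and medians, set beside those of all genes, are therefore descriptions. All 10 were among the 15230 genes that passed the filter on low counts and were tested. RNA was sequenced from 2 mouse mammary fibroblast lines in 21 libraries, 3 for each of 7 groups. Line NF1 (NF) holds fibroblasts from normal FVB/n mammary glands, and line CAF1 (CAF) holds cancer-associated fibroblasts of an MMTV-PyMT mammary carcinoma, a mouse model in which a viral promoter drives an oncogene in the mammary epithelium. All cells grew in medium with 10% serum, were seeded at 60% confluence and received 100 nM siRNA. Extraction followed 48 h later. The 4 NF groups were control siRNA with vehicle, control siRNA with TGFb1, Hsp90aa1 siRNA with TGFb1 and Hsp90ab1 siRNA with TGFb1. The cytokine was given at 5 ng/mL from 5 h after transfection, which left 43 h of exposure. The 3 CAF groups received control, Hsp90aa1 or Hsp90ab1 siRNA, all with vehicle. Each Hsp90 gene was targeted by 1 pool of siRNAs, each cell type is 1 line, and no NF knockdown without TGFb1 was analysed, so line and cytokine cannot be told apart when a knockdown is compared between NF and CAF. The labels do not say whether the 3 replicates of a group were separate cultures, so the spread behind each p-value may be technical.

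HSP90 is an abundant ATP-driven chaperone that folds and holds signalling proteins such as kinases and steroid hormone receptors, called its clients. In mammals the cytosolic forms are HSP90 alpha, encoded by Hsp90aa1, and HSP90 beta, encoded by Hsp90ab1. Cofactors steer its cycle: adaptors bring clients in, other cofactors speed or slow ATP hydrolysis, and a group of proteins with tetratricopeptide repeats (TPR, a protein-binding fold) docks at its C-terminal tail. STIP1 (also called HOP) passes clients from HSP70 to HSP90, CDC37 brings protein kinases, and CDC37L1 is a relative of CDC37. AHSA1 speeds the ATPase, PTGES3 (p23) stabilises the closed, ATP-bound chaperone, and TSC1, better known as a subunit of the tuberous sclerosis complex that restrains mTORC1, has also been described as a brake on the ATPase. FKBP4 (FKBP52) and PPID (cyclophilin 40) are TPR proteins with a prolyl isomerase domain found in steroid receptor complexes, PPP5C is a TPR protein phosphatase, and UNC45A is a chaperone of myosin that binds HSP90.

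Libraries held 35087162 to 70421549 assigned reads, and mitochondrial genes took 1.67 to 4.30% of them, the highest share being that of the first NF library with control siRNA and vehicle. Values per library are given as CPM, the count scaled to a common library total and for composition, in the order of replicates 1, 2 and 3. Marker values and marker sums were scaled to the library total only. All 10 fibroblast markers were detected, Thy1 in all but 1 library, with a summed level of 12003.5 to 73479 CPM over the libraries, but Thy1 averaged 0.142 CPM in NF against 208 CPM in CAF, and Dcn averaged 244 CPM in NF against 21.01 CPM in CAF. The 7 epithelial markers summed to at most 1.62 CPM in NF and 4.87 to 21.9 CPM in CAF, nearly all of it Krt19. The 4 endothelial markers summed to at most 1.38 CPM in NF and to 3.37 to 13.8 CPM in CAF, mostly Kdr. The immune, pericyte, glial and adipocyte markers summed to at most 8.76, 5.64, 2.78 and 0.0708 CPM in any library. Of the defining markers of other cell types, Tie1 (endothelium), Cd3e (T cells) and Sox10 (glia) were at 0 in all 21 libraries.

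Both knockdowns lowered their targets in both lines. With Hsp90aa1 siRNA, Hsp90aa1 stood at 40.2, 65.5 and 120.4 CPM in NF against 671, 606 and 543 CPM in the NF control with TGFb1, and at 122, 85.9 and 58.1 CPM in CAF against 995, 926 and 726 CPM in the CAF control. That left 12.4% of control in NF and 10.1% in CAF (edgeR adjusted p = 7.78e-06 and 4.2e-06). With Hsp90ab1 siRNA, Hsp90ab1 stood at 327, 429 and 623 CPM in NF against 3782, 3448 and 3119.8 CPM, and at 315, 246 and 166 CPM in CAF against 2536, 2395 and 2369.8 CPM. That left 13.3% and 9.96% of control (adjusted p = 1.02e-06 and 1.5e-07). Hsp90ab1 kept 89.3% of its control level in NF and 84.7% in CAF under Hsp90aa1 siRNA without passing the test (adjusted p = 0.58 and 0.413), and in CAF its libraries, at 2113, 2029.6 and 2041 CPM, also lay below every control. Hsp90aa1 was at 253, 297 and 327 CPM in NF and 479, 459 and 324 CPM in CAF under Hsp90ab1 siRNA, below every matched control library, though at 48.1% and 47.6% of control it did not pass the test (adjusted p = 0.0722 and 0.123).

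The members lie on 8 chromosomes of the GRCm38 assembly, and none lies next to another. Stip1 (chr19:7020702-7039967, minus strand) and Cdc37l1 (chr19:28990352-29026681, plus strand) share chromosome 19. Ppp5c (chr7:17004640-17027924, minus strand) and Unc45a (chr7:80325292-80341005, minus strand) share chromosome 7. The others are Cdc37 (chr9:21133222-21149982, minus strand), Ahsa1 (chr12:87266479-87273998, plus strand), Ptges3 (chr10:128058954-128077272, plus strand), Tsc1 (chr2:28641228-28691167, plus strand), Fkbp4 (chr6:128429735-128438677, minus strand) and Ppid (chr3:79591342-79603650, plus strand). The values of a few rest on shared reads. The deposited estimated count of Ptges3 was a whole number in 0 of 21 libraries and that of Ppid in 4 of 21, so some of their reads were divided with other features and their levels are less certain than those of Stip1, Cdc37, Cdc37l1 and Ahsa1, which were exactly whole in all 21, with a tolerance of 0. The counts of Ptges3 lay up to 0.473 from a whole number and those of Ppid up to 0.146, while Fkbp4, Unc45a, Tsc1 and Ppp5c were exactly whole in 14, 13, 12 and 12 libraries and lay at most 0.002 from a whole number in the others. Exons of Cdc37l1 share 430 bases with genes on the opposite strand, and those of Ahsa1 share 76 bases with a gene on the same strand.

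Levels can be compared between genes only per length, in TPM, the transcript share per unit of length. In NF with control siRNA and vehicle, Fkbp4 led at 362 ± 29.5 TPM (SD, n = 3), with Stip1 at 330.0 ± 38.2 TPM, and the libraries of these genes overlapped. Ptges3 at 219.8 ± 10.2 TPM, Ppid at 187 ± 51.4 TPM and Cdc37 at 182 ± 14.5 TPM followed, each overlapping the next in the order. Ahsa1 stood clear of its neighbours at 129 ± 3.54 TPM. The low end held Ppp5c at 49.2 ± 5.68 and Unc45a at 45.1 ± 6.50 TPM, which overlapped, and Cdc37l1 at 29.3 ± 1.14 and Tsc1 at 26.3 ± 2.78 TPM, which also overlapped. In CAF with control siRNA the order differed at the top. Stip1 led at 275 ± 23.4 TPM, followed by Fkbp4 at 213 ± 24.0, Ptges3 at 201 ± 19.8 and Cdc37 at 185 ± 6.21 TPM, the last 3 overlapping in turn. Ahsa1 held 169 ± 11.3 TPM, and Ppid stood lower in the order, at 83.3 ± 3.50 TPM. Tsc1 was last in all 7 groups.

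**Figure D1:**
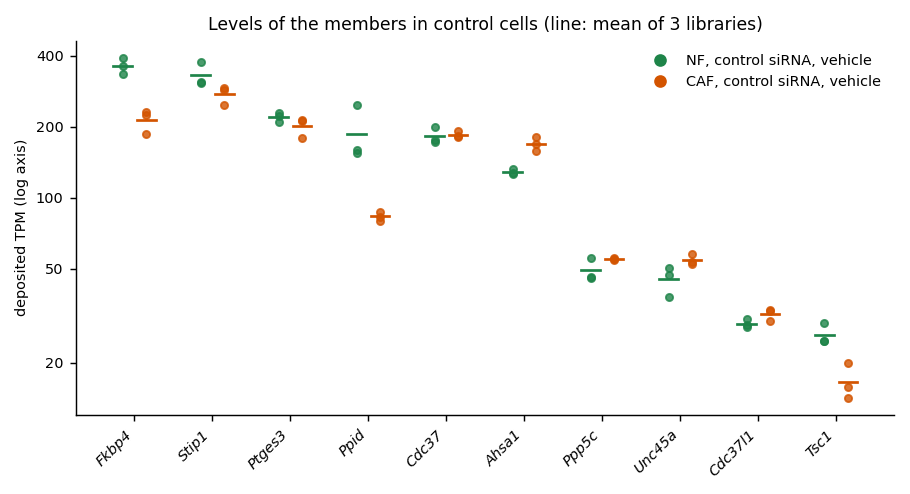
Deposited TPM (vertical log axis) of the 10 members in the 3 NF and 3 CAF libraries with control siRNA and vehicle; points are libraries and lines are means. Fkbp4, at a mean of 362 TPM in NF and 213 TPM in CAF, and Ppid, at 187 and 83.3 TPM, show the widest gaps between the lines among the members above 50 TPM, and Cdc37 at 182 and 185 TPM one of the narrowest.

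Because several members moved together in the knockdowns, the stretch upstream of the transcription start is shown for 3 of them that differed between the knockdowns in both lines: Fkbp4, which moved most, and Stip1 and Ptges3 as an adaptor and an ATP-state cofactor. Each line gives the 200 bases from position -250 to -51 relative to the RefSeq start (GRCm38.p6), 5′ to 3′ on the gene's own strand. Capitals mark matches to the paired heat shock unit GAANNTTC or TTCNNGAA and to the CCAAT box, on either strand. The Fkbp4 stretch (chr6:128438707-128438906, minus strand, 58.0% GC) overlaps exonic sequence of the gene Gm10069 over 150 bases. The Stip1 stretch is chr19:7040077-7040276 (minus strand, 55.5% GC) and the Ptges3 stretch is chr10:128058732-128058931 (plus strand, 71.5% GC).
Fkbp4: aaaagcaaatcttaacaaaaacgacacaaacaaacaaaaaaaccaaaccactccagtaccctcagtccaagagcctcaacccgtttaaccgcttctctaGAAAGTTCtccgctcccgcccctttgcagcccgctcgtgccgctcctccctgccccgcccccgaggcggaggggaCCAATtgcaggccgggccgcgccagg
Stip1: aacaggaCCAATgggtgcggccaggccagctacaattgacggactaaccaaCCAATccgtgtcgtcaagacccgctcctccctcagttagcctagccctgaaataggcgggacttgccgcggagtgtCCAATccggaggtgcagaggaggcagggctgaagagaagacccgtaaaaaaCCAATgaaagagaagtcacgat
Ptges3: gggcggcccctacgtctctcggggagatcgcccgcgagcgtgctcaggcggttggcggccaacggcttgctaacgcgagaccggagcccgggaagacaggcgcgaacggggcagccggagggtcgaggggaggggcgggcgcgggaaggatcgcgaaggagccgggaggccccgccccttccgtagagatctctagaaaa

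The Fkbp4 stretch holds 1 paired heat shock unit, at -151 to -144, and 1 CCAAT box. The Stip1 stretch holds 4 CCAAT boxes, a number reached by 349 of 32851 promoter windows of the same table (1.06%). The Ptges3 stretch holds neither motif. Over windows of 300 bases, 250 before the start and 50 after, 9 of the 10 members had an entry (all but Ppid). A paired unit of either form was found in 2 of 9 (22.2%), Fkbp4 and Cdc37, against 15.1% of all windows; GAANNTTC alone stood in 7.86% of all windows and TTCNNGAA in 8.52%. A run of 3 consecutive units, GAANNTTC followed by NNGAA or TTCNNGAA followed by NNTTC, which holds both paired forms, was in 0 of 9 against 0.603%. CCAAT was in 4 of 9 (44.4%) against 37.4%, and the E-box CACGTG in 0 of 9 against 7.15%. These are matches of letters in 1 window per gene, near the shares of all promoters.

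Hsp90aa1 siRNA lowered members of several cofactor classes in both lines. In NF with TGFb1, 4 of 10 fell and 0 rose against control siRNA: the prolyl isomerases Fkbp4 and Ppid, the ATP-state cofactor Ptges3 and the myosin chaperone Unc45a. In CAF, 4 fell and 0 rose: Fkbp4, Ptges3, the adaptor Stip1 and the ATPase activator Ahsa1. Fkbp4 and Ptges3 passed the test in both lines. Cdc37, Cdc37l1, Tsc1 and Ppp5c passed it in neither. Of all genes tested, 13.5% were called lower and 14.8% higher in NF, and 12.9% lower and 12.5% higher in CAF (edgeR quasi-likelihood test, adjusted p under 0.05). The members had a median log2 fold change of -0.23 in NF and -0.18 in CAF, beside 0.01 and 0.03 over all genes tested; on log2(TPM + 1) the CAF median of the members was -0.31, and without NF control replicate 1 the NF median was -0.14. On that scale limma called 1153 genes higher and 2108 lower in CAF, where edgeR called 1898 and 1969. At an unadjusted p under 0.05 no member was higher in either line, and DESeq2, limma on TPM and the fit with a replicate block also called none higher. With that block 6 members were called lower in NF and 4 in CAF. The CAF count rested in part on single libraries: without CAF control replicate 1 it was 1, Fkbp4, and without CAF control replicate 2 or Hsp90aa1 siRNA replicate 3 it was 2. In CAF the summed fibroblast markers were also higher with Hsp90aa1 siRNA, at 65419.8 to 73479 CPM against 47552.2 to 60903.7 CPM in the controls, and their part in the members' values was not tested. In such bulk libraries, fewer cells that make a transcript and less of it per cell cannot be told apart.

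Hsp90ab1 siRNA gave another picture. Against control siRNA 0 of 10 members passed the test in either line, where 1.06% of all genes were called higher and 1.62% lower in NF, and 0.466% higher and 0.433% lower in CAF. Fkbp4 came nearest, at 122% of control in NF and 127% in CAF, with intervals of 0.11 to 0.47 and 0.16 to 0.53 on the log2 scale, and no library of the knockdown overlapped a control. At an unadjusted p under 0.05 Fkbp4 was higher in NF, and Fkbp4 and Ptges3 in CAF. DESeq2 called 1 member, Fkbp4, higher in each line, limma on log2(TPM + 1) called 1 in NF and 0 in CAF, and limma on log2(TPM + 0.1) called 0 in both. With the replicate number as a block, Fkbp4 was called higher in NF (0.29 ± 0.07, adjusted p = 0.0141) and in CAF (0.35 ± 0.07, adjusted p = 0.0091). The members' median log2 fold change was 0.09 in CAF and 0.04 in NF, where it rested on single controls: it was 0.12 without NF control replicate 1 and -0.01 without replicate 3. In these libraries Hsp90aa1 was also below control, as given above, and its part in the members' values was not tested.

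Both knockdowns of a line are set against the same controls, so the members' values against control are given side by side and were compared between knockdowns directly. Set directly against Hsp90ab1 siRNA, cells with Hsp90aa1 siRNA held less of 5 members in NF: Fkbp4, Ptges3, Ppid, Ahsa1 and Stip1. In CAF the same 5 were lower, and the phosphatase Ppp5c with them. No member was called higher, also not at an unadjusted p under 0.05, by DESeq2, by limma on TPM or with the replicate block. Over all genes, 16.4% were called lower and 17.7% higher in NF, and 13.3% lower and 13.1% higher in CAF. The members' median was -0.26 in NF and -0.29 in CAF, beside 0.01 and 0.02 over all genes; on log2(TPM + 1) these medians were -0.31 and -0.40. On that scale limma called 1766 genes higher and 2830 lower in NF, where edgeR called 2701 and 2500, and 1111 higher and 2435 lower in CAF, where edgeR called 1988 and 2018. In each line 6 members had every library with Hsp90aa1 siRNA below every library with Hsp90ab1 siRNA, as had 25.3% of all genes in NF and 20.2% in CAF. In NF Cdc37 lay the other way, as did 27.1% of all genes. Leaving out NF replicate 1 with Hsp90aa1 siRNA brought the NF count from 5 to 3, by the loss of Stip1 (adjusted p = 0.078) and Ppid (adjusted p = 0.0517).

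**Figure D2:**
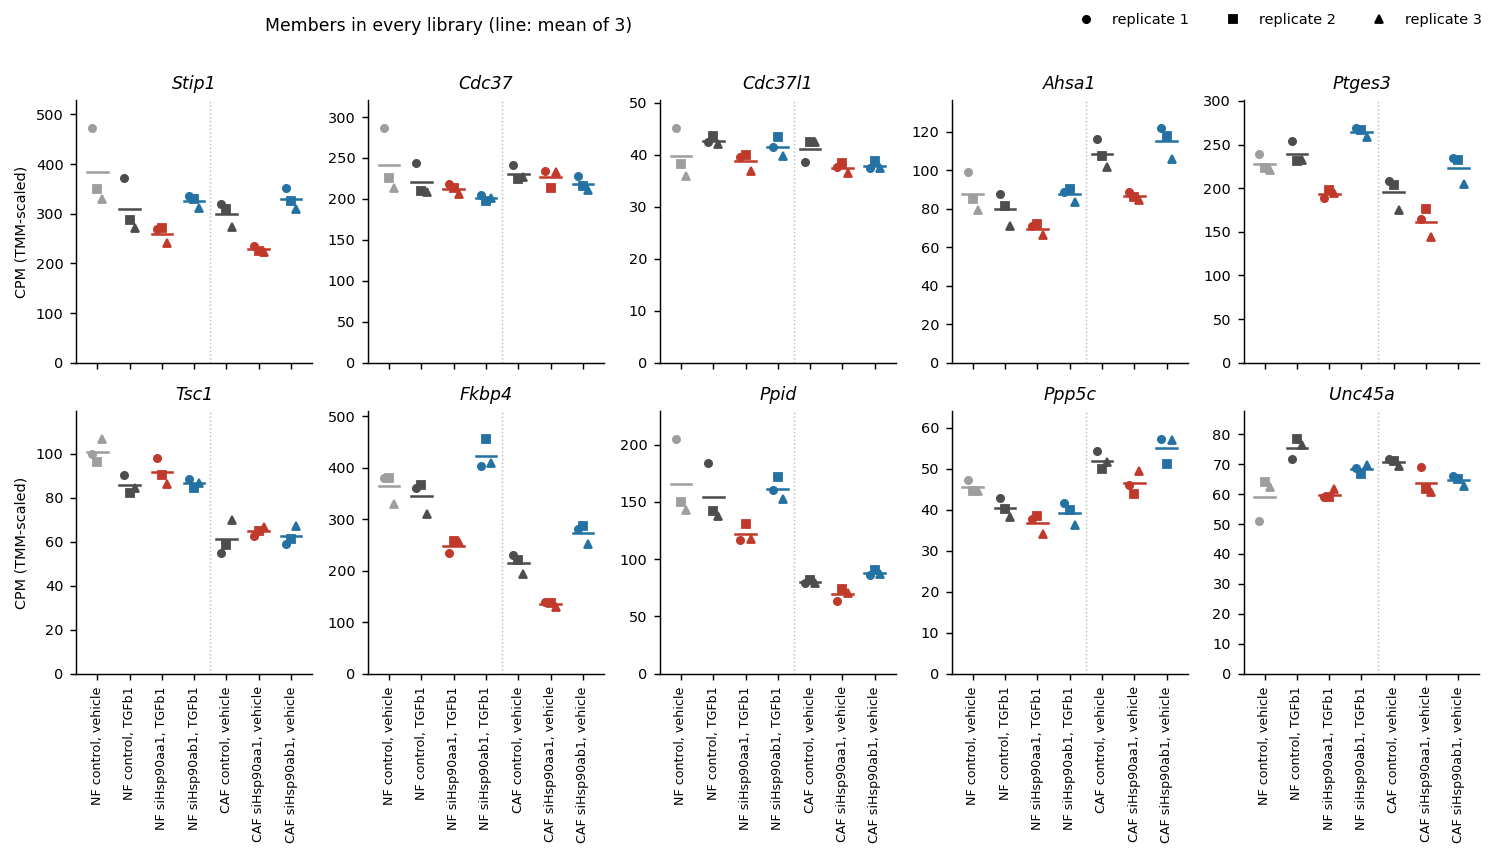
CPM of each member (1 panel a gene, vertical axis from 0) in all 21 libraries, by group; circles, squares and triangles are replicates 1, 2 and 3, lines are group means, and the dotted line parts NF from CAF. For Fkbp4 the Hsp90aa1 siRNA libraries lie at 233 to 258 CPM in NF and 129 to 139 CPM in CAF, below every control of their line, and the Hsp90ab1 siRNA libraries at 403 to 455 and 252 to 287 CPM above them, whereas the Cdc37 groups of CAF all lie within 211 to 241 CPM.

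**Figure D3:**
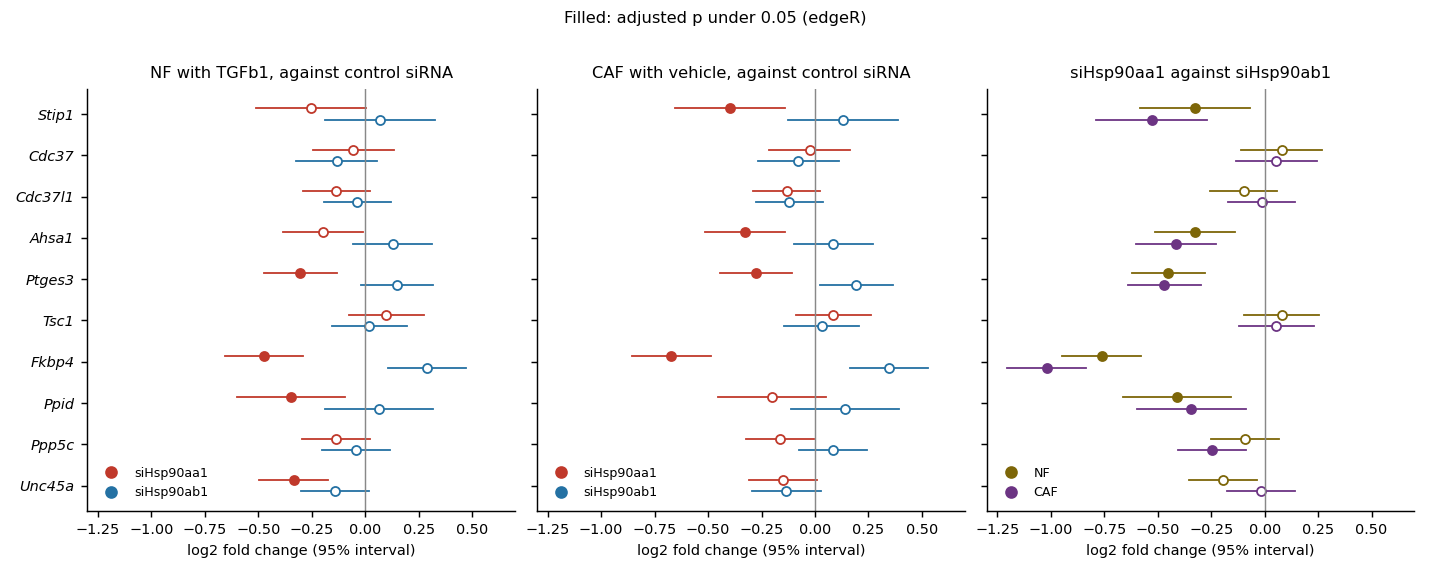
Fitted log2 fold change (horizontal axis, bars are 95% intervals) of each member against control siRNA in NF and in CAF, and between the knockdowns; filled points passed an adjusted p under 0.05. Fkbp4 lies at -0.47 and 0.29 in NF and at -0.67 and 0.35 in CAF under the Hsp90aa1 and Hsp90ab1 siRNA, and no point of the Hsp90ab1 siRNA is filled.

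Among the 10 members, Fkbp4 showed the widest separation between the knockdowns in both lines. In NF it measured 360.0, 366 and 310.1 CPM with control siRNA and TGFb1, 233, 258 and 255 CPM with Hsp90aa1 siRNA, and 403, 455 and 408 CPM with Hsp90ab1 siRNA. In CAF it measured 230.3, 221 and 194 CPM, 139, 136 and 129 CPM, and 281, 287 and 252 CPM in the same order. The 3 groups of each line did not overlap: the Hsp90aa1 siRNA was lowest, the control between and the Hsp90ab1 siRNA highest. Under Hsp90aa1 siRNA Fkbp4 fell to 72.0% of control in NF (log2 fold change -0.47 ± 0.09 SE, adjusted p = 6.66e-04) and to 62.8% in CAF (-0.67 ± 0.09, adjusted p = 4.47e-05). Between the knockdowns its level under Hsp90aa1 siRNA was 58.9% of that under Hsp90ab1 siRNA in NF (-0.76 ± 0.09, adjusted p = 4.52e-06) and 49.3% in CAF (-1.02 ± 0.09, adjusted p = 1.26e-06). Within replicates 1, 2 and 3 the last difference was -0.79, -0.82 and -0.68 in NF and -1.01, -1.07 and -0.97 in CAF.

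Ppid, the cyclophilin of steroid receptor complexes, separated less and was less steady. It measured 184, 142 and 138 CPM in the NF control with TGFb1, 117, 130.4 and 118 CPM with Hsp90aa1 siRNA and 160.4, 172 and 152 CPM with Hsp90ab1 siRNA. In CAF it measured 79.2, 81.8 and 78.8 CPM, 63.4, 74.3 and 70.8 CPM, and 86.5, 90.5 and 87.2 CPM. The Hsp90aa1 siRNA libraries lay below all controls in both lines, and the first NF control stood well above the other two. Ppid fell to 78.7% of control in NF (-0.35 ± 0.12, adjusted p = 0.039), a call that was lost without NF control replicate 1 (-0.20, adjusted p = 0.239) and without Hsp90aa1 siRNA replicate 1 or 3 (adjusted p = 0.119 and 0.0946). In CAF it was at 86.9% of control and did not pass (adjusted p = 0.24). The direct comparison gave -0.41 ± 0.12 in NF (adjusted p = 0.0134, lost without Hsp90aa1 siRNA replicate 1 at 0.0517) and -0.34 ± 0.12 in CAF (adjusted p = 0.0439). The CAF call was lost in 5 of 6 fits that left out 1 library, all but the one without Hsp90aa1 siRNA replicate 2 (adjusted p = 0.0561 to 0.134).

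Ppp5c, the TPR phosphatase, varied within a narrow band. Its CAF libraries held 54.3, 49.8 and 51.8 CPM with control siRNA, 46.1, 43.7 and 49.6 CPM with Hsp90aa1 siRNA and 57.2, 51.1 and 57.1 CPM with Hsp90ab1 siRNA. The Hsp90aa1 siRNA libraries lay just below the others. Against control the difference was -0.16 ± 0.08 (adjusted p = 0.125). Against Hsp90ab1 siRNA Ppp5c was lower by the test (-0.25 ± 0.08, adjusted p = 0.0217), which was lost without CAF Hsp90aa1 siRNA replicate 2, or Hsp90ab1 siRNA replicate 1 or 3 (adjusted p = 0.0819, 0.0809 and 0.0501). In NF its 9 libraries with TGFb1 spanned 34.1 to 42.8 CPM, and the direct difference was -0.09 ± 0.08 (adjusted p = 0.369).

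Among the cofactors of the ATPase cycle, Ptges3 (p23) followed the course of Fkbp4 at a smaller size. In NF it measured 254, 231 and 233 CPM with control siRNA and TGFb1, 189, 198 and 195 CPM with Hsp90aa1 siRNA, and 269, 267 and 259 CPM with Hsp90ab1 siRNA. In CAF it measured 209, 203 and 175 CPM, 165, 176 and 144 CPM, and 234, 232 and 205 CPM. The NF groups did not overlap, while in CAF the second Hsp90aa1 siRNA library lay just above the lowest control. Ptges3 fell to 81.0% of control in NF (-0.30 ± 0.08, adjusted p = 0.0092) and 82.6% in CAF (-0.28 ± 0.08, adjusted p = 0.0175). The CAF call was lost without control replicate 1 or 2 or Hsp90aa1 siRNA replicate 3 (adjusted p = 0.0812, 0.0664 and 0.0906). Within replicate numbers its CAF difference was -0.34, -0.21 and -0.28. The direct difference was -0.45 ± 0.08 in NF (adjusted p = 3.47e-04) and -0.47 ± 0.08 in CAF (adjusted p = 4.73e-04), and the knockdowns did not overlap in either line.

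Ahsa1, the ATPase activator, measured 87.5, 81.2 and 71.3 CPM in the NF control with TGFb1, 71.0, 72.1 and 66.1 CPM with Hsp90aa1 siRNA, and 88.7, 90.2 and 83.4 CPM with Hsp90ab1 siRNA. In CAF it measured 116, 107 and 102 CPM, 88.9, 85.9 and 84.5 CPM, and 122, 118 and 106 CPM. The knockdowns were apart in both lines, and the Hsp90aa1 siRNA libraries lay below all controls in CAF only. Ahsa1 fell to 79.7% of control in CAF (-0.33 ± 0.09, adjusted p = 0.011), a call lost without CAF control replicate 1 (adjusted p = 0.0544). In NF the difference was -0.20 ± 0.09 and did not pass (adjusted p = 0.104), but it did with the replicate block (-0.19 ± 0.06, adjusted p = 0.0149) and without NF control replicate 3 (-0.28, adjusted p = 0.0379), and it was -0.13 without NF control replicate 1 (adjusted p = 0.363). Between the knockdowns the difference was -0.33 ± 0.09 in NF (adjusted p = 0.00825) and -0.41 ± 0.09 in CAF (adjusted p = 0.00245).

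Tsc1, the brake on the ATPase and subunit of the tuberous sclerosis complex, did not follow its functional neighbours. It measured 90.1, 82.0 and 84.5 CPM in the NF control with TGFb1, 98.2, 90.4 and 86.0 CPM with Hsp90aa1 siRNA and 88.6, 84.5 and 86.6 CPM with Hsp90ab1 siRNA, and all groups overlapped. In CAF the 9 libraries spanned 54.6 to 69.9 CPM, again with overlap. Its difference under Hsp90aa1 siRNA was 0.10 ± 0.08 in NF and 0.09 ± 0.08 in CAF (adjusted p = 0.413 and 0.499). Tsc1 was higher in 5 of 6 replicate-matched pairs over both lines, a count for which the share of all genes was not taken.

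Of the client loaders, Stip1 (HOP) moved and the CDC37 pair did not pass the test. Stip1 measured 372, 288 and 272 CPM in the NF control with TGFb1, 270.0, 270.3 and 240.1 CPM with Hsp90aa1 siRNA and 335, 330.2 and 312 CPM with Hsp90ab1 siRNA. In CAF it measured 319, 309 and 273 CPM, 236, 226 and 223 CPM, and 352, 325 and 310.3 CPM. The Hsp90aa1 siRNA libraries were below all others of their line, and the first NF control was again the highest. Stip1 fell to 76.0% of control in CAF (-0.40 ± 0.12, adjusted p = 0.024), a call lost without control replicate 1 or 2 or Hsp90aa1 siRNA replicate 2 or 3 (adjusted p = 0.085, 0.0694, 0.0594 and 0.0674). In NF it was at 83.8% of control and did not pass (-0.25 ± 0.12, adjusted p = 0.13), while with the replicate block it did (-0.25 ± 0.08, adjusted p = 0.0284), as by limma on log2(TPM + 1) (adjusted p = 0.043). Without NF control replicate 1 the NF difference was -0.11 (adjusted p = 0.572). The direct difference was -0.32 ± 0.12 in NF (adjusted p = 0.0487) and -0.53 ± 0.12 in CAF (adjusted p = 0.00432). The NF call was lost in each of the 6 fits that left out 1 library (adjusted p = 0.0612 to 0.149), although within replicate numbers the difference was -0.31, -0.29 and -0.38.

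Cdc37, the kinase loader, held 206 to 218 CPM in the NF libraries with Hsp90aa1 siRNA and 197 to 205 CPM with Hsp90ab1 siRNA, beside 209 to 244 CPM in the control with TGFb1. In CAF its 9 libraries spanned 211 to 241 CPM. In NF the Hsp90ab1 siRNA libraries lay below all controls and all Hsp90aa1 siRNA libraries. The largest difference of Cdc37 against control was -0.13 ± 0.09, in NF with Hsp90ab1 siRNA (adjusted p = 0.618). Cdc37l1 ranged from 36.6 to 43.6 CPM over the 18 libraries of these comparisons, with differences of -0.14 ± 0.07 in NF and -0.13 ± 0.07 in CAF under Hsp90aa1 siRNA that did not pass (adjusted p = 0.187 and 0.21). On log2(TPM + 1) with limma the CAF difference of Cdc37l1 passed (-0.20 ± 0.06, adjusted p = 0.0321).

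Unc45a, the myosin chaperone, was below control after both knockdowns, and passed the test after 1 of them. It measured 71.8, 78.3 and 76.5 CPM in the NF control with TGFb1, 58.9, 59.0 and 61.7 CPM with Hsp90aa1 siRNA, and 68.8, 66.7 and 69.9 CPM with Hsp90ab1 siRNA. The 3 NF groups did not overlap, and both knockdowns lay below the control. Unc45a fell to 79.3% of control under Hsp90aa1 siRNA (-0.34 ± 0.08, adjusted p = 0.00319) and stood at 90.7% under Hsp90ab1 siRNA without passing (-0.14 ± 0.08, adjusted p = 0.478). In CAF it was at 90.1% and 91.2% of control (adjusted p = 0.16 and 0.69), with each knockdown below all controls. The direct difference in NF was -0.19 ± 0.08 (adjusted p = 0.056), or adjusted p = 0.0486 with the replicate block; in CAF it was -0.02 ± 0.08.

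Counted over the 6 replicate-matched pairs of both lines, 8 members were below control in 6 of 6 pairs with Hsp90aa1 siRNA: Stip1, Cdc37l1, Ahsa1, Ptges3, Fkbp4, Ppid, Ppp5c and Unc45a. Of all genes tested, 18.1% were below control and 20.1% above it in 6 of 6. With Hsp90ab1 siRNA, Ahsa1, Ptges3 and Fkbp4 were above control in 6 of 6, while Cdc37, Cdc37l1 and Unc45a were below control in 6 of 6. The shares of all genes were 12.4% above and 12.2% below in 6 of 6. Stip1 and Ppid were above control in 5 of 6, a count for which the share of all genes was not taken. Both knockdowns are set against the same controls here.

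No member's response was shown to differ between the lines. The difference of the Hsp90aa1 siRNA effect, CAF minus NF, was called for 0 of 10 members, beside 5.46% of all genes in either direction; for Fkbp4 it was -0.20 ± 0.12 (adjusted p = 0.402, 95% interval -0.46 to 0.06). For the Hsp90ab1 siRNA effect it was called for 0 of 10 members and 0.00657% of all genes. For the direct difference of the knockdowns it was called for 0 of 10 members and 8.92% of all genes, with Fkbp4 at -0.26 ± 0.12 (adjusted p = 0.226). At an unadjusted p under 0.05, by DESeq2, by limma on TPM and with the block the count was also 0 in each of the 3. Unc45a, called in NF and not in CAF under Hsp90aa1 siRNA, differed by 0.19 ± 0.11 (adjusted p = 0.361, interval -0.04 to 0.41).

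On the TPM scale the members can be added up and set beside the cytosolic HSP90 transcripts. This scale, unlike the CPM given here, is not corrected for composition. Under Hsp90aa1 siRNA limma on log2(TPM + 1) called 1583 genes higher and 2151 lower in NF, where edgeR called 2247 and 2062. In CAF limma called 1153 higher and 2108 lower. The part of the scale in the sums was not tested. The 10 members summed to 1479 ± 82.2 TPM in the NF control with TGFb1, 1187 ± 46.8 TPM with Hsp90aa1 siRNA and 1646 ± 48.2 TPM with Hsp90ab1 siRNA (SD, n = 3). In CAF the sums were 1285 ± 83.2, 989 ± 28.1 and 1412 ± 64.4 TPM. In each line all libraries with Hsp90aa1 siRNA lay below all controls. With Hsp90ab1 siRNA all lay above them in NF, while in CAF the third library, at 1339.6 TPM, was just below the first control at 1343 TPM. Hsp90aa1 and Hsp90ab1 together held 3367, 2532 and 644 TPM in these NF groups and 2809, 1722 and 573 TPM in CAF. Per TPM of cytosolic HSP90, the members thus held 0.440 TPM in the NF control, 0.469 with Hsp90aa1 siRNA and 2.64 with Hsp90ab1 siRNA, and 0.458, 0.574 and 2.54 in CAF. The targeted transcript is itself part of the HSP90 sum. Of the other HSP90 genes, Hsp90b1, the form of the endoplasmic reticulum, passed the test in none of these comparisons. Trap1, the mitochondrial form, rose in NF under Hsp90aa1 siRNA (0.56 ± 0.10, adjusted p = 3.85e-04), from 79.4, 80.3 and 61.1 to 112, 115 and 99.4 CPM. It was lower with TGFb1 than with vehicle (-0.49 ± 0.10, adjusted p = 8.67e-04), a comparison that shares these controls.

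**Figure D4:**
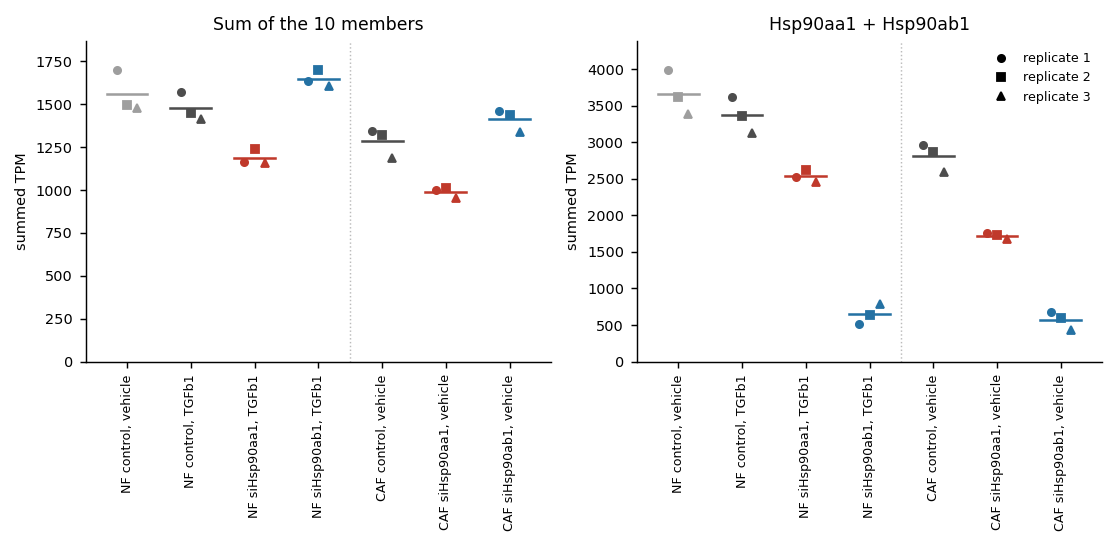
Summed deposited TPM (vertical axes from 0) of the 10 members and of Hsp90aa1 plus Hsp90ab1 in each of the 21 libraries; symbols are replicates 1 to 3 and lines are group means. The members' sum is lowest with Hsp90aa1 siRNA (mean 1187 TPM in NF, 989 in CAF) and highest with Hsp90ab1 siRNA within each knockdown set (1646 and 1412), although the HSP90 sum is lowest with the latter (644 and 573).

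TGFb1, a cytokine that drives fibroblast activation, changed 2 members in NF with control siRNA. Unc45a rose to 128% of vehicle (0.35 ± 0.08, adjusted p = 0.00177), from 50.9, 64.2 and 62.4 to 71.8, 78.3 and 76.5 CPM, with no overlap; within replicates 1, 2 and 3 the rise was 0.50, 0.29 and 0.29. Tsc1 fell to 84.9% (-0.24 ± 0.08, adjusted p = 0.0406), from 99.7, 96.0 and 107 to 90.1, 82.0 and 84.5 CPM, also with no overlap. The Tsc1 call was lost without vehicle replicate 1 or 3 or TGFb1 replicate 2 or 3 (adjusted p = 0.0581, 0.11, 0.106 and 0.0827), and by limma on log2(TPM + 1) (adjusted p = 0.263). Over all genes 14.6% were called higher and 14.4% lower. The summed fibroblast markers were 12003.5 to 15425.6 CPM with vehicle and 22979 to 30449.9 CPM with TGFb1, and the 3 pericyte markers 0.868 to 1.01 and 2.82 to 4.76 CPM, with no overlap of either sum. Their part in the members' values was not tested. The rise of Unc45a and its fall under Hsp90aa1 siRNA share the NF control with TGFb1, whose libraries hold the 2 highest values of the gene. Stip1 was at 80.9% of vehicle without passing (-0.31 ± 0.12, adjusted p = 0.0692), and passed with the replicate block (-0.30 ± 0.08, adjusted p = 0.00826) and without TGFb1 replicate 1 or vehicle replicate 2 or 3 (adjusted p = 0.00853, 0.0449 and 0.0237). Its vehicle libraries held 472, 349 and 330.3 CPM, and the first of them is the library with the highest mitochondrial share (4.30%); its part in the result was not tested beyond leaving it out, which gave -0.13 for Stip1 (adjusted p = 0.395) and added Cdc37l1 to the members called higher (0.20 ± 0.06, adjusted p = 0.0238).

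Between the lines, with control siRNA and vehicle in both, 8 of 10 members differed, with no overlap of libraries for any of them; of all genes, 29.8% had every CAF library below every NF library and 31.6% the reverse. CAF held less Ppid, Fkbp4, Tsc1, Stip1 and Ptges3, and more Ahsa1, Unc45a and Ppp5c. The lines differed widely in general, with 31.6% of all genes called higher and 30% lower in CAF. Ppid showed the largest difference, at 79.2, 81.8 and 78.8 CPM in CAF against 205, 149.8 and 143 CPM in NF (48.2% of NF, -1.05 ± 0.12, adjusted p = 6.07e-07). Its difference was -1.37 within replicate 1 and -0.87 and -0.86 within the others, the first NF library being high. Fkbp4 stood at 59.1% of NF (-0.76 ± 0.09, adjusted p = 6.22e-07) and Tsc1 at 60.5% (-0.72 ± 0.08, adjusted p = 6.46e-07). Stip1 was at 78.2% (adjusted p = 0.0178), which was lost without NF replicate 1 (-0.18, adjusted p = 0.165), without CAF replicate 3 (-0.31, adjusted p = 0.0622) and in a fit of only these 6 libraries (adjusted p = 0.0756). Ptges3 was at 85.9% (adjusted p = 0.0254) and was lost without the same libraries (adjusted p = 0.0816 and 0.106). That call was also lost by limma on log2(TPM + 1) (-0.13, adjusted p = 0.19) and log2(TPM + 0.1) (adjusted p = 0.193), without a filter on low counts (adjusted p = 0.129) and in the fit of only these libraries (adjusted p = 0.109).

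On the higher side in CAF, Ahsa1 measured 116, 107 and 102 CPM against 99.0, 84.9 and 79.3 CPM in NF (0.31 ± 0.09, adjusted p = 0.00577). Unc45a measured 71.8, 71.2 and 69.6 CPM against 50.9, 64.2 and 62.4 CPM (0.26 ± 0.08, adjusted p = 0.00616), and within replicate numbers its difference was 0.50, 0.15 and 0.16. Ppp5c was higher by 0.19 ± 0.08 (adjusted p = 0.0328). The Ahsa1 call was lost without NF replicate 3 (0.22, adjusted p = 0.054), and the Ppp5c call in 5 of 6 fits that left out 1 library, all but the one without NF replicate 1 (adjusted p = 0.0501 to 0.17). Without NF replicate 3 the count of members called higher was therefore 1, and without NF replicate 1 or CAF replicate 3 the count called lower was 3. The Ppp5c call was also lost by limma on log2(TPM + 1) (0.17, adjusted p = 0.117). A fit on these 6 libraries alone called 0 members higher and 3 lower, with adjusted p = 0.0588 for Ahsa1, 0.0993 for Unc45a and 0.124 for Ppp5c. Cdc37 and Cdc37l1 were at 95.4% and 104% of NF and did not pass (adjusted p = 0.534 and 0.576), although without NF replicate 1 Cdc37l1 was called higher (0.15 ± 0.06, adjusted p = 0.0493). Each side is 1 line, and the fibroblast, epithelial and endothelial marker sums also differed between the lines as given above; their part in these differences was not tested.

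Over the 21 libraries, with each line centred on its own mean, the members' likeness to each other varied widely. These correlations are descriptions over libraries that share groups and replicate numbers. Stip1 and Ahsa1 had r = 0.945, Ptges3 and Fkbp4 r = 0.932, and Ahsa1 and Fkbp4 r = 0.909. The 15 pairs among Stip1, Ahsa1, Ptges3, Fkbp4, Ppid and Ppp5c, a grouping made after the values were seen, ran from 0.459 to 0.945 with a median of 0.797. The other 30 pairs ran from -0.613, for Tsc1 with Unc45a, to 0.525, with a median of 0.203. The ranges overlapped: Stip1 with Cdc37 (0.525) and Ppid with Cdc37l1 (0.516) were above Ptges3 with Ppp5c (0.459).

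**Figure D5:**
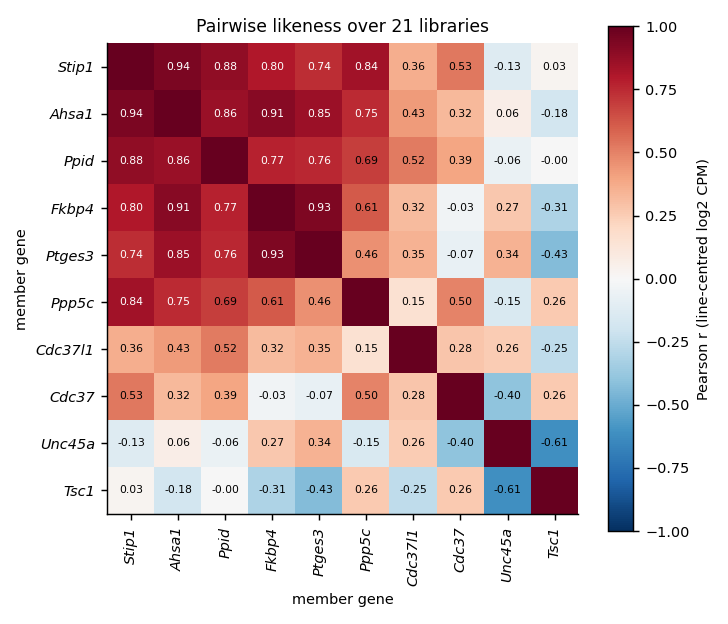
Pearson r (colour, and printed in each cell) between the members' log2 CPM over the 21 libraries, each line centred on its mean. The block of Stip1, Ahsa1, Ppid, Fkbp4, Ptges3 and Ppp5c holds values from 0.459 to 0.945, whereas Unc45a and Tsc1 reach -0.613.

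The tested genes outside the set whose profile was most like the members' mean profile were Psmc1 (r = 0.972), a subunit of the proteasome, Mettl16 (0.967) and Mettl14 (0.953), both of the RNA methylation machinery, the DNA topoisomerase Top1 (0.958) and Anp32b (0.956), each over 21 libraries. With the replicate numbers also centred, Psmc1 and Mettl16 had r = 0.976 and 0.980. The nearest 5 genes were then Mettl16, Rbm8a, Sumo2, Hnrnpm and Psmc1. Top1 stood at rank 12 (0.971), and Mettl14 and Anp32b were not among the first 15. Hsp90aa1 itself had r = 0.809 with the members' mean and stood at rank 543, and Hsp90ab1 had r = -0.279. Hsf1, the heat shock factor gene, had r = 0.058. With the replicate numbers also centred, Hsp90aa1 had r = 0.912 (rank 285), Hsp90ab1 -0.280 and Hsf1 -0.082. The members nearest their own mean were Stip1 (0.952), Ahsa1 (0.946) and Ppid (0.923), and Unc45a (0.091) and Tsc1 (-0.039) were farthest from it. Each member is itself part of that mean, so its r cannot be set beside those of genes outside the set.

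Of the wider family of HSP90 cofactors, 31 of 32 genes were tested. Under Hsp90aa1 siRNA 7 of the 31 fell and 1 rose in NF, where 13.5% of all genes were called lower and 14.8% higher, and 11 fell and 2 rose in CAF, where 12.9% were lower and 12.5% higher. The medians were -0.09 and -0.11, beside 0.01 and 0.03 over all genes. Under Hsp90ab1 siRNA 1 rose in NF and 0 in CAF, and none fell. The shares of all genes were 1.06% higher and 1.62% lower in NF, and 0.466% and 0.433% in CAF. In the direct comparison 7 were lower and 2 higher in NF (16.4% and 17.7% of all genes), and 10 lower and 2 higher in CAF (13.3% and 13.1%). TGFb1 raised 2 and lowered 4, beside 14.6% and 14.4% of all genes, and CAF held less of 17 and more of 3 than NF, beside 30% and 31.6%, with medians of -0.05 and -0.39. Nudcd2, a NudC-domain cofactor, showed the largest difference, with means of 23.1 CPM under Hsp90aa1 siRNA and 71.4 CPM under Hsp90ab1 siRNA in NF (-1.63 ± 0.18, adjusted p = 2.2e-06) and 21.01 against 67.4 CPM in CAF (-1.68 ± 0.18, adjusted p = 6.55e-06). Ahsa2, a relative of Ahsa1, was the cofactor that moved both ways by the test in NF: it fell under Hsp90aa1 siRNA (-0.28, adjusted p = 0.0151) and rose under Hsp90ab1 siRNA (0.42 ± 0.08, adjusted p = 0.00675). Chordc1, Tomm70a, the mitochondrial import receptor that docks HSP90, and Nudcd1 were also lower in the direct comparison in both lines, with log2 differences of -0.60, -0.40 and -0.40 in NF and -0.42, -0.44 and -0.65 in CAF (adjusted p from 3.75e-04 to 0.00812).

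A list of 20 genes held targets of heat shock factor together with the factor genes Hsf1 and Hsf2. It was called at shares near or below those of all genes under Hsp90aa1 siRNA. In NF 3 rose and 1 fell, beside 14.8% and 13.5% of all genes, and in CAF 2 rose and 2 fell, beside 12.5% and 12.9%, with medians of 0.00 and -0.05. Under Hsp90ab1 siRNA 1 rose and 0 fell in each line. Of all genes, 1.06% were called higher and 1.62% lower there in NF, and 0.466% and 0.433% in CAF. In the direct comparison 4 were lower in each line (16.4% of all genes in NF and 13.3% in CAF), against 3 higher in NF (17.7%) and 1 in CAF (13.1%). TGFb1 raised 2 and lowered 5 (14.6% and 14.4% of all genes), and 5 were higher and 7 lower in CAF than in NF (31.6% and 30%). In the direct comparison Dnajb1, a partner of HSP70, was lower with Hsp90aa1 siRNA in both lines (-0.53 ± 0.10 and -0.62 ± 0.10, adjusted p = 6.95e-04 and 3.58e-04), as were Hsf2 (-0.68 and -0.59, adjusted p = 4.29e-04 and 0.00242) and the HSP70 exchange factor Hsph1 (-0.70 and -0.94, adjusted p = 0.00731 and 0.00137). Hspa4l, a relative of Hsph1, was lower there in CAF (-0.69 ± 0.21, adjusted p = 0.0241). Of the small heat shock genes, Cryab was higher in NF with Hsp90aa1 siRNA than with Hsp90ab1 siRNA (1.06 ± 0.20, adjusted p = 4.61e-04) and than in the control (0.84 ± 0.20, adjusted p = 0.00398). Hspb1 was lower in NF with Hsp90aa1 siRNA than with Hsp90ab1 siRNA (-0.62 ± 0.09, adjusted p = 7.05e-05), having risen against control with Hsp90ab1 siRNA (0.69 ± 0.09, adjusted p = 4.53e-04), and in CAF it rose against control with Hsp90aa1 siRNA (0.32, adjusted p = 0.0155). Of the 8 genes of the tuberous sclerosis complex and its output, Tsc1 among them, 1 rose and 1 fell in NF under Hsp90aa1 siRNA, 2 rose and 0 fell in CAF, beside the shares of all genes given for the heat shock list, and 0 passed under Hsp90ab1 siRNA in either line. Tsc2, the partner of Tsc1, was the 1 that rose in NF (0.30 ± 0.06, adjusted p = 9.57e-04) and was among those that rose in CAF (0.24 ± 0.06, adjusted p = 0.00513); it is named after its values were seen.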

How the data were processed

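RNA was read as 21 stranded mRNA libraries in 7 groups of 3. The submitters' processing notes name STAR, Salmon and the GRCm38 build, while the sources used here give no versions, annotation or strand setting of counting. Values are estimated counts, as deposited by the authors, of which 10.89% were not whole numbers and were rounded. The authors also deposited TPM, used here to compare levels between genes.

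The 10 members, the other lists and the marker genes were chosen with earlier results of these data known. In R 4.3.3, edgeR 4.0.16 (TMM factors, genes kept by filterByExpr with a count minimum of 10 and a total minimum of 15) fitted 1 coefficient per group over all 21 libraries, which share 1 estimate of spread. Quasi-likelihood F tests gave p-values, adjusted by the Benjamini-Hochberg method over 15230 genes within each of 11 comparisons (threshold 0.05). A standard error is the size of the log2 fold change over the root of F, and 95% intervals use the test's degrees of freedom. Totals were 35087162 to 70421549 reads, and no member had fewer than 1255 reads in a library. The method was tested on simulated counts of 14854 to 14895 genes for each of 8 comparisons. It recovered 25.5 to 40.2% of changes of 0.5 on the log2 scale and 58.6 to 73.7% of changes of 1. Of its calls, 1.92 to 7.77% were false. Simulated libraries were independent and held few changed genes, unlike the data, so these rates need not hold for the data.

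Alternatives were DESeq2 1.42.0, RLE factors, no filter, at least 1 CPM in 3 libraries, a replicate block, only the groups compared, limma 3.58.1 on log2(TPM + 1) and log2(TPM + 0.1), and leaving out each library. The labels give the replicate number as a batch, so the numbers pair the libraries. The reported fit leaves this pairing out, and the replicate block takes it in as an alternative. Over 10374 genes, same-numbered libraries of different groups had a mean correlation of deviations of 0.31 (-0.0534 to 0.838, 53 of 63 over 0.1). The mean for other numbers, -0.151, is largely fixed by centring each group on its own mean and is no separate evidence of pairing. No replicates were duplicates: the chi-square per degree of freedom between them was at least 16.5. Named genes are all members, the HSP90 genes, the 4 genes of the cofactor and of the heat shock list with the smallest p in each direct comparison, and the 5 genes most like the members' mean profile. Promoters are from RefSeq (GRCm38.p6). Positions come from GENCODE vM21.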

Additional observations from a re-analysis of the deposited data

Results flagged for a closer look

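No member's knockdown response differed between the lines by the test of the difference itself, but 5 other genes of the lists and HSP90 family did (edgeR interaction, CAF minus NF, log2). Eif4ebp1, an output of mTORC1 that is named because of this test, had an Hsp90aa1 siRNA effect of 0.63 in CAF and -0.09 in NF, a difference of 0.73 ± 0.20 (adjusted p = 0.0375). Between the knockdowns it was higher with Hsp90aa1 siRNA in CAF (0.43) and lower in NF (-0.47), a difference of 0.91 ± 0.20 (adjusted p = 0.0074). Trap1, the mitochondrial HSP90, was at 0.60 in NF and 0.14 in CAF in the direct comparison and differed by -0.47 ± 0.14 (adjusted p = 0.0396). The R2TP subunit Pih1d1 and the phosphatase regulator Ppp1r10, both named because of this test, differed by -0.44 ± 0.13 and -0.56 ± 0.13 (adjusted p = 0.0485 and 0.0141). Hspb1, a small heat shock protein, was at -0.62 in NF and 0.14 in CAF and differed by 0.76 ± 0.13 (adjusted p = 0.00148). In these comparisons NF had TGFb1 and CAF had vehicle, so line and cytokine cannot be told apart.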

How the results depend on the processing

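Over 11 comparisons of 10 members, no fold change of a called member changed sign under any alternative. RLE factors left all 110 calls as they were. The replicate block added 6 calls and lost 0, and DESeq2 added 3 and lost 0. A fit of only the groups compared lost 7 and added 1, limma on log2(TPM + 1) lost 3 and added 5, and no filter lost 4. Leaving out 1 library changed 46 of 840 member results, 40 of them by losing the call. Those fits also hold fewer libraries, and the cause of the changes was not tested.

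The count of members called higher with Hsp90ab1 siRNA, 0 in each line, was 1 in NF with the replicate block, limma on log2(TPM + 1) and DESeq2, and 1 in CAF with the replicate block and DESeq2. The count called lower by TGFb1, 1, was 0 without a filter, with only the groups compared and with limma at a pseudocount of 1 or 0.1, and 2 with the replicate block. Leaving out 1 library gave 0 to 2, and 1 to 2 for the count called higher. Over fits leaving out 1 library, the count lower with Hsp90aa1 siRNA in CAF, 4, ran from 1 to 4, and in NF from 3 to 5. With limma at either pseudocount it was 6 in each line, and in NF also 6 with the block. Leaving out 1 library brought the NF count of the direct comparison, 5, to 3 to 4. It was 6 with DESeq2, the block, a minimum of 1 CPM and only the groups compared. Between the lines the counts of 3 higher and 5 lower ran from 1 to 4 and from 3 to 5 in such fits, and with only the groups compared they were 0 and 3.

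Over all genes the block moved the calls with Hsp90ab1 siRNA from 162 higher and 247 lower to 404 and 498 in NF, and from 71 and 66 to 196 and 164 in CAF. DESeq2 gave 318 and 387 in NF and 170 and 148 in CAF, and a fit of only the CAF groups gave 2 and 3. The share of genes called for a difference between the lines moved likewise: for the Hsp90aa1 siRNA effect from 372 and 460 to 829 and 1042 with the block. Every member had at least 1255 reads in every library, and the precision of each comparison is set by groups of 3 libraries.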
